A study of Homo sapiens with 4 samples.

Results

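The mevalonate arm of sterol synthesis was examined in LNCaP and PC3 human prostate cancer cells exposed to atorvastatin (ATO). The genes were 8: ACAT2, HMGCS1, MVK, PMVK, MVD, IDI1, FDPS and GGPS1. They were found by name among the gene spots of the arrays, and each had 1 probe in 1 spot, so that 8 of the 27274 gene names and 8 of the 34127 probes of the array design were taken. The rule that selects them uses names and no measured value, but the 8 names were chosen with earlier results of these data known.

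Expression was measured on 1-colour Agilent arrays. LNCaP cells, an androgen-sensitive line, and PC3 cells, an androgen-independent line, were grown in RPMI medium with serum. An untreated sample (control) and a sample kept for 24 h in 10 µM ATO were taken from each line, which gave 4 groups of 1 array each, named here by line and treatment. The array controls are described as untreated with no vehicle named, although the study's methods dissolved ATO in DMSO, and each line is a single established culture model with no further genotype given.

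The mevalonate arm turns acetyl-CoA into isoprenoid diphosphates. ACAT2 and HMGCS1 act before mevalonate is formed, and MVK, PMVK and MVD phosphorylate and decarboxylate mevalonate to isopentenyl diphosphate. ATO is a statin, a class of drugs that block the formation of mevalonate. IDI1 isomerizes that unit, FDPS joins such units into farnesyl diphosphate, which feeds the sterol branch, and GGPS1 extends the chain to geranylgeranyl diphosphate, used to anchor proteins in membranes. Many genes of the arm are known targets of the sterol-regulated transcription factor SREBP-2, which acts together with NF-Y, a factor that binds CCAAT boxes.

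RefSeq promoter windows on GRCh38.p14 were given for 7 of the 8 genes, 12 windows in all, and not for ACAT2. Only the 250 bases before each annotated start were read. CCAAT, on either strand, was found in 7 of the 12 windows and in 32.0% of 34788 windows of the same length over all genes. At least 2 matches were found in 6 of the 12, against 9.53% of all windows. GGGCGG, the box bound by SP1, was found in 11 of the 12 windows and in 42.6% of all. The sterol response element spelled TCACNCCAC and the E-box CACGTG were in 0 of the 12 windows, and in 0.882% and 6.31% of all. A match describes the letters only. In 1 IDI1 window not printed here, a pair of CCAAT matches on opposite strands overlapped, and both were counted.

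The windows of HMGCS1, MVD and IDI1 are printed because these genes had the largest ATO over control ratios in LNCaP cells, that of PMVK because it had the smallest, and that of MVK because it held the most CCAAT matches (5). Of windows of a gene that overlap, the one farther upstream is given. Each runs 5′ to 3′ on the gene's strand, and capitals mark CCAAT or its reverse complement. HMGCS1 is chr5:43313413-43313662, minus strand. MVK is chr12:109573544-109573793, plus strand. PMVK is chr1:154936720-154936969, minus strand. MVD is chr16:88663092-88663341, minus strand. IDI1 is chr10:1049120-1049369, minus strand.
HMGCS1: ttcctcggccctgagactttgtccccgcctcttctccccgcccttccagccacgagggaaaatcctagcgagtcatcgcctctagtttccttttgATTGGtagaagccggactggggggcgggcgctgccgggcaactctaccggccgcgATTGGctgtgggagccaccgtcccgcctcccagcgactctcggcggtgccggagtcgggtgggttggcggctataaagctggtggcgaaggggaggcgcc
MVK: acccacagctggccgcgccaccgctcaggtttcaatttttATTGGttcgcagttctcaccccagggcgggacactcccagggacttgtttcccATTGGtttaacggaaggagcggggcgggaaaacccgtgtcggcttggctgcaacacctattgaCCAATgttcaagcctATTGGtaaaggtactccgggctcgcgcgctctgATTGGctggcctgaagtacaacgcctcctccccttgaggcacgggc
PMVK: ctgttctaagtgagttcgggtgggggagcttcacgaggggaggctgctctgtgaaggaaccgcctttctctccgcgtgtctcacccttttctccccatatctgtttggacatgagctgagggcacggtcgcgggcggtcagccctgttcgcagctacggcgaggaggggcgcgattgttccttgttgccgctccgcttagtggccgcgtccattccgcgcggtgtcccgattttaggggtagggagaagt
MVD: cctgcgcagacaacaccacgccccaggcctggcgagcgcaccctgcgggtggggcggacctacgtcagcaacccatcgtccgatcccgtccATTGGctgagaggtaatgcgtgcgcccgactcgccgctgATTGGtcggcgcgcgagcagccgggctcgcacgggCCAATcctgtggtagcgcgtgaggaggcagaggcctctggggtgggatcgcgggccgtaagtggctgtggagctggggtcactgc
IDI1: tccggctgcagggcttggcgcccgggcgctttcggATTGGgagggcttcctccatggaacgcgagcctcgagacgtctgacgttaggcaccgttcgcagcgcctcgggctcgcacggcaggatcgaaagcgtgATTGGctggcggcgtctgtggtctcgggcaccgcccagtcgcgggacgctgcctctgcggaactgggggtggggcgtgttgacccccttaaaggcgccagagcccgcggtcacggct
HMGCS1 and IDI1 hold 2 matches each in these windows, MVD holds 3, MVK holds 5 and PMVK holds 0. A relation between the number of matches and the ratio after ATO was not tested. Windows not printed differ: the other HMGCS1 window holds 0, and the others of IDI1 hold 3 and 0. FDPS, not printed, holds 3, and 1 of the 3 GGPS1 windows holds a single match.

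With 1 array a group there were no replicates and no test within a line, and precision is limited by how few arrays there were. Intensities are the processed, background-subtracted spot signals in scanner units, each ± the error that the scanner software estimated for that spot. Ratios of ATO over control were taken on the log2 scale after the 75th percentile of each array was subtracted. The error given with a ratio is that scanner error carried over, and repeated spots of other probes on the same arrays had a median SD of 0.11 for a single spot's log2 ratio in LNCaP cells and 0.12 in PC3 cells. Of such repeated spots, 1.13% and 1.22% departed from the ratio of their probe by over 1.5-fold. Between 48.5% and 52.9% of gene spots were well above background, no spot was saturated (0 on each array), and all arrays lay on 1 slide from 1 scan. The lines matched their labels: all 6 LNCaP markers, KLK3 the largest at no less than 1499-fold, were higher in untreated LNCaP cells, and all 6 PC3 markers, CAV1 the largest at 382-fold or more, were higher in untreated PC3 cells.

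After ATO, all 8 genes had higher values than the control in both lines, an order that turned for PMVK alone, and with the spike-in scaling only among the alternatives tried. The differences in LNCaP cells ranged from 1.07-fold (PMVK) to 3.64-fold (HMGCS1), and those in PC3 cells from 1.18-fold (PMVK) to 1.83-fold (MVD). At least 1.5-fold was reached by 5 of 8 genes in LNCaP cells (ACAT2, HMGCS1, MVK, MVD and IDI1), where 2.77% of all genes with a value reached it, and by 4 of 8 in PC3 cells (ACAT2, HMGCS1, MVD and GGPS1), where 8.2% did. The 3 genes past it in both lines, ACAT2, HMGCS1 and MVD, are read against 0.359% of all genes. The PC3 count was 0 of 8 when the arrays were scaled to spike-in probes, 3 of 8 after normexp, 6 of 8 with the 50th percentile (MVK and FDPS added), and 2 of the 5 members left without bright local backgrounds. In bulk RNA, a change in the make-up of the culture and a change in RNA per cell cannot be told apart.

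**Figure D1:**
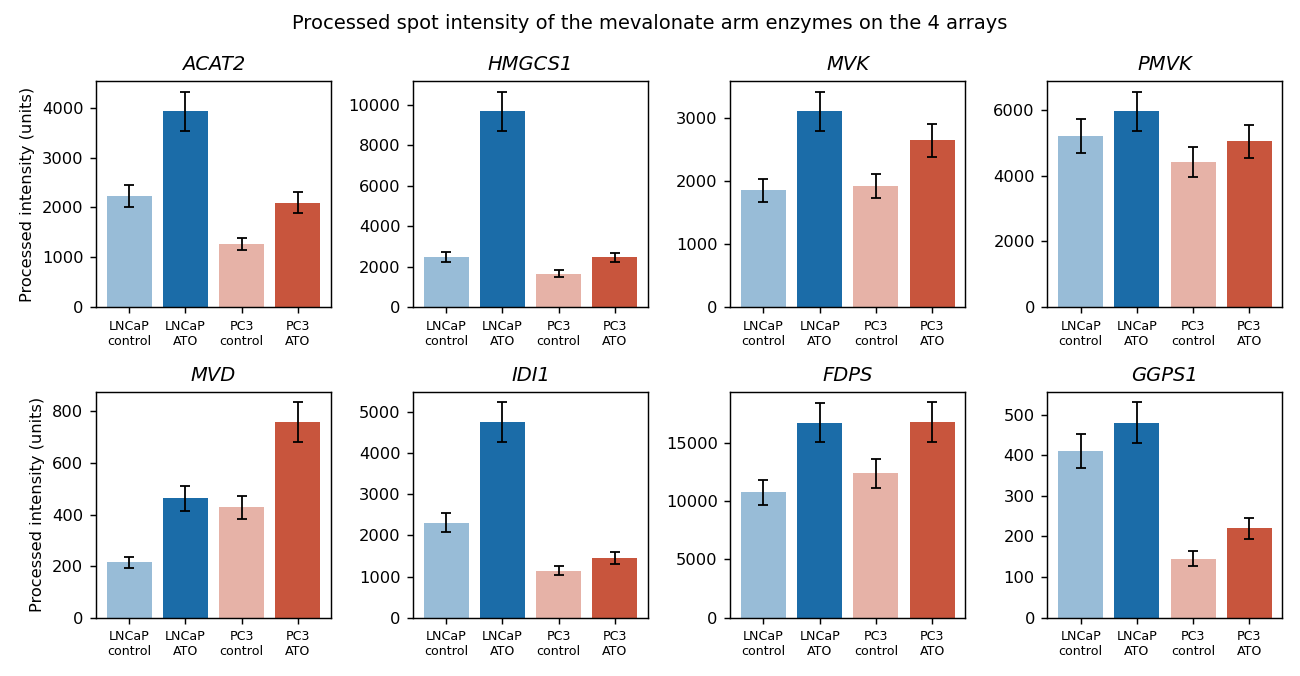
Processed spot intensity in scanner units (vertical axis, from 0, its own range in each panel) of the 8 enzymes on the 4 arrays. Bars are single arrays, pale for control and dark for ATO, and error bars are the scanner software's spot error. In each panel and each line the ATO bar is the taller, least so for PMVK.

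The first enzymes of the arm act upstream of mevalonate. ACAT2, the cytosolic acetyl-CoA acetyltransferase, was measured by a probe at chr6:160119804-160119863 (hg18, plus strand). Its intensity was 2236 ± 224 units in LNCaP control and 3928 ± 393 units in LNCaP ATO, and 1262 ± 127 units in PC3 control and 2090 ± 210 units in PC3 ATO. Both ATO arrays were above their controls, and PC3 ATO did not reach LNCaP control. For ATO over control this came to a log2 ratio of 0.71 ± 0.20 in LNCaP cells (1.64-fold) and 0.78 ± 0.20 in PC3 cells (1.71-fold). Only 0.973% of the 12236 genes measured on both LNCaP arrays had a ratio as high, against 3.68% of the 12513 measured on both PC3 arrays.

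HMGCS1, the cytosolic HMG-CoA synthase (probe chr5:43325874-43325933, hg18, minus strand), gave 2485 ± 249 units in LNCaP control and 9690 ± 969 units in LNCaP ATO. In PC3 cells it gave 1647 ± 165 units in control and 2453 ± 246 units in ATO. LNCaP ATO stood well above the other 3 arrays, and PC3 ATO lay near LNCaP control. The log2 ratio of 1.86 ± 0.20 in LNCaP cells (3.64-fold) ranked 5 among the 12236 genes measured there, 0.0409% of which were as high. In PC3 cells the log2 ratio was 0.62 ± 0.20 (1.54-fold), with 6.23% of genes as high. The spot on the PC3 ATO array had a local background of 151 units, above the limit of 134.5 units set for bright backgrounds. The part of that background in the PC3 value was not tested, and the ratio set against the neighbouring spots was 0.64.

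The kinases and the decarboxylase that follow did not move alike. MVK, mevalonate kinase (probe chr12:108519324-108519383, hg18, plus strand), gave 1855 ± 186 units without and 3112 ± 311 units with ATO in LNCaP cells, and 1922 ± 193 and 2653 ± 266 units in PC3 cells. The control arrays were near each other and both ATO arrays above them. ATO over control gave a log2 ratio of 0.65 ± 0.20 in LNCaP cells (1.56-fold, 1.24% of genes as high) and 0.51 ± 0.20 in PC3 cells (1.43-fold, 9.37% of genes as high). MVK lay just inside the 1.5-fold limit in LNCaP cells (outside it with the spike-in scaling, 0.54) and just outside it in PC3 cells.

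PMVK, phosphomevalonate kinase (probe chr1:153164022-153164081, hg18, minus strand), had the smallest ratios of the 8. It gave 5200 ± 520 units without and 5960 ± 596 units with ATO in LNCaP cells, and 4418 ± 442 and 5047 ± 505 units in PC3 cells, with error ranges that met within each line. The log2 ratio was 0.10 ± 0.20 in LNCaP cells and 0.24 ± 0.20 in PC3 cells, and 30% and 24.8% of all genes were as high. The direction turned under the spike-in scaling, to -0.00899 and -0.0961. The PC3 ATO spot also had a bright local background (162.5 units), whose part was not tested.

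MVD, mevalonate diphosphate decarboxylase (chr16:87246486-87247239, hg18, minus strand, a span of 754 bases for a 60-base probe), gave 215 ± 22.5 units without and 464 ± 48.1 units with ATO in LNCaP cells, and 428 ± 44.7 and 758 ± 77.0 units in PC3 cells. Among the 8, MVD alone had an untreated PC3 value above the LNCaP one under every scaling tried, and LNCaP ATO lay near PC3 control. On the log2 scale the ratio was 1.01 ± 0.21 in LNCaP cells (2.01-fold, 0.433% of genes as high) and 0.87 ± 0.21 in PC3 cells (1.83-fold, 2.7% of genes as high). MVD had the highest PC3 ratio of the 8. With HMGCS1 it made up the 2 genes past 2-fold in LNCaP cells, while 0 of 8 passed 2-fold in PC3 cells, both with the 75th percentile. The LNCaP log2 ratio of MVD fell under 2-fold after normexp (0.80) and with the spike-in probes (0.90), quantile (0.97) and the 50th percentile (0.99). Its PC3 ratio passed 2-fold with the 50th percentile (1.07).

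The last 3 enzymes isomerize and join the isoprene units. IDI1, isopentenyl diphosphate isomerase (probe chr10:1076619-1076678, hg18, minus strand), gave 2310 ± 231 units without and 4752 ± 475 units with ATO in LNCaP cells, and 1144 ± 115 and 1448 ± 145 units in PC3 cells. Both PC3 arrays lay below both LNCaP arrays. Its log2 ratio was 0.94 ± 0.20 in LNCaP cells (1.92-fold, 0.49% of genes as high) and 0.39 ± 0.20 in PC3 cells (1.31-fold, 14.9% of genes as high).

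FDPS, farnesyl diphosphate synthase (probe chr1:153556893-153556952, hg18, plus strand), gave 10741 ± 1074 units without and 16722 ± 1672 units with ATO in LNCaP cells, and 12391 ± 1239 and 16779 ± 1678 units in PC3 cells. The controls lay within about 1 scanner error of each other after scaling, as did the ATO arrays. The log2 ratio was 0.54 ± 0.20 in LNCaP cells (1.45-fold, 2.05% of genes as high) and 0.49 ± 0.20 in PC3 cells (1.40-fold, 10.3% of genes as high), just outside 1.5-fold in both. FDPS has near-identical copies in the genome, so its signal may not come from 1 gene alone. No other probe of the array shared a stretch of 20 bases with the FDPS probe (0), nor with the probe of any other member.

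GGPS1, geranylgeranyl diphosphate synthase (probe chr1:233574239-233574298, hg18, plus strand), gave 409 ± 41.6 units without and 480 ± 49.7 units with ATO in LNCaP cells, and 145 ± 18.8 and 220 ± 26.4 units in PC3 cells. The LNCaP arrays overlapped within their errors, the PC3 arrays did not, and both PC3 arrays lay below both LNCaP arrays. The log2 ratio was 0.13 ± 0.21 in LNCaP cells (1.09-fold, 24% of genes as high) and 0.65 ± 0.25 in PC3 cells (1.56-fold, 5.73% of genes as high). The PC3 value fell to 0.22 when the background was corrected by normexp in place of the processed signal. The spot on the LNCaP ATO array had a bright local background (182 units against a limit of 170.9), whose part was not tested.

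**Figure D2:**
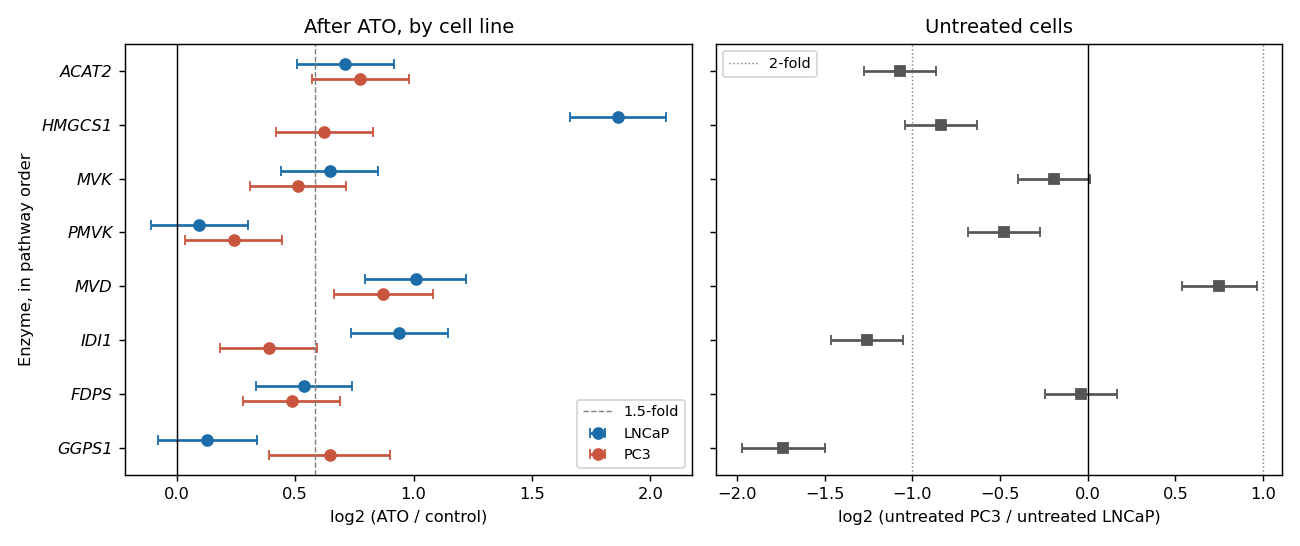
Left, log2 ratio of ATO over control in LNCaP cells (blue) and PC3 cells (red), and right, log2 ratio of untreated PC3 over untreated LNCaP cells, for the 8 enzymes from the first step (top) to GGPS1 (bottom). Points are single pairs of arrays, bars the scanner error of the ratio, dashed and dotted lines 1.5-fold and 2-fold. HMGCS1 stands apart in LNCaP cells at 1.86. Of the 8 untreated ratios 7 lie left of 0, those of FDPS and MVK within their scanner error of it. The median of all genes in that contrast was -0.12.

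Over the 8 genes the median log2 ratio was 0.68 in LNCaP cells (1.60-fold) and 0.57 in PC3 cells (1.48-fold). The median over all genes measured on both arrays of a line was 0.01 in either, with an SD across genes of 0.24 in LNCaP cells and 0.44 in PC3 cells. A ratio of similar size therefore had more genes at or above it in PC3 cells. Of all measured genes, 53.1% in LNCaP cells and 51.3% in PC3 cells were higher with ATO, against 8 of 8 here.

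Set side by side with the 75th percentile as scaling, the ratios of 5 genes differed by less than their error between the lines. LNCaP minus PC3 was -0.06 ± 0.29 on the log2 scale for ACAT2, 0.13 ± 0.29 for MVK, -0.14 ± 0.29 for PMVK, 0.14 ± 0.30 for MVD and 0.05 ± 0.29 for FDPS. Other scalings took some of these past their error, to 0.37 for MVD and 0.36 for MVK with the spike-in probes and to -0.35 for PMVK with the 50th percentile. The difference was 1.24 ± 0.29 for HMGCS1 and 0.55 ± 0.29 for IDI1, both larger in LNCaP cells, and -0.52 ± 0.33 for GGPS1, larger in PC3 cells. For HMGCS1 the difference lay between 1.03 and 1.47 over the alternatives and for IDI1 between 0.34 and 0.78, whereas for GGPS1 it was -0.03 after normexp and -0.29 with the spike-in probes. Of the 11016 genes measured on all arrays, 0.899% had a difference as high as that of HMGCS1, 7.73% one as high as that of IDI1, and 92% one as high as that of GGPS1. With 1 array a group these differences were not tested.

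**Figure D3:**
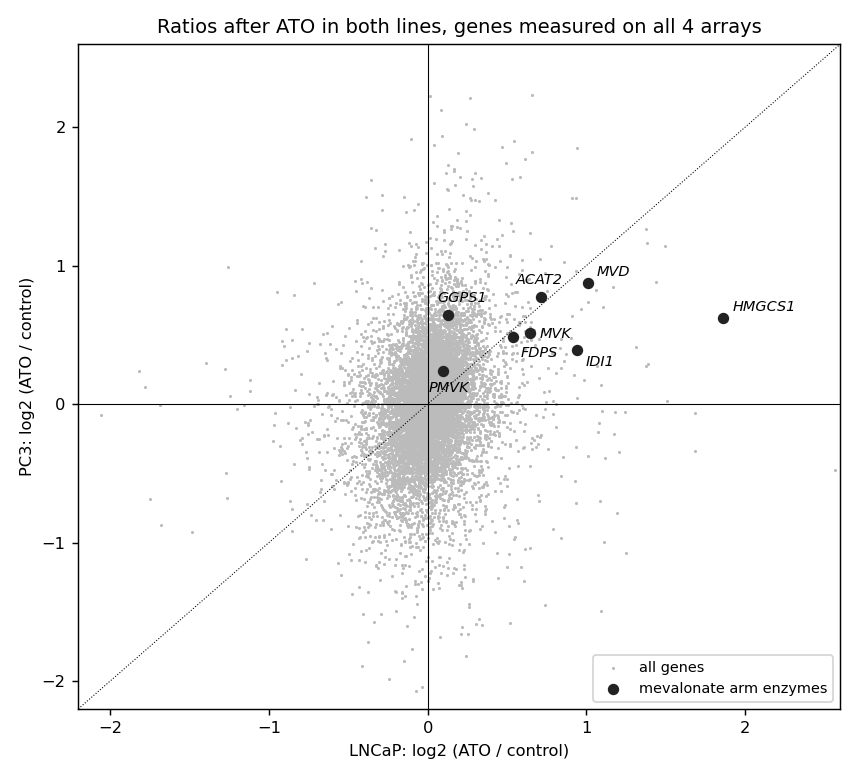
Log2 ratio of ATO over control in LNCaP cells (horizontal axis) and PC3 cells (vertical axis) for the 11016 genes measured on all arrays (grey, 9 of them outside the axes), with the 8 enzymes in black and the line of equal ratios dotted. All 8 lie in the upper right area with this scaling (75th percentile), most near the dotted line, with HMGCS1 far to its right and GGPS1 to its left.

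The isozymes of the arm and the pathways around it were set beside these values. ACAT1, the mitochondrial counterpart of ACAT2, had log2 ratios of 0.03 in LNCaP cells and 0.02 in PC3 cells. IDI2, the isozyme of IDI1, was well above background on none of the arrays.

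Of the enzymes from squalene to cholesterol, which use the product of FDPS, 8 of 11 with a value reached 1.5-fold higher in LNCaP cells and 6 of 12 in PC3 cells. In either line 0 were at least 1.5-fold lower, and the median log2 ratios were 0.72 and 0.59. DHCR7 in PC3 cells (-0.23) was the only value of that list below its control. FDFT1, SQLE, LSS and SC4MOL passed in both lines, with 0.94 and 0.96 for FDFT1, the squalene synthase that takes up farnesyl diphosphate. Of the SREBP pathway, SREBF2, which encodes SREBP-2, had log2 ratios of 0.65 in LNCaP cells and 0.69 in PC3 cells, and INSIG1, a sterol-dependent brake on SREBP processing, had 1.38 and 1.16. STARD4, a sterol carrier, had 0.93 and 1.49. The other members of that list described here, SREBF1, SCAP, INSIG2, MBTPS1 and MBTPS2, which encode SREBP-1, its escort, another brake and the proteases that release SREBP, did not reach 1.5-fold in either line and ranged from -0.19 (MBTPS2) to -0.00365 (SREBF1) in LNCaP cells and from -0.41 (MBTPS2) to 0.40 (INSIG2) in PC3 cells. A count over that list is not given. The genes that use the isoprenoid diphosphates otherwise, such as the prenyltransferase subunits FNTA and FNTB, were listed with genes that act on prenylated proteins, such as ICMT. That list had median log2 ratios of -0.04 in LNCaP cells and -0.01 in PC3 cells. Of them 0 of 13 reached 1.5-fold in LNCaP cells, and 1 higher (ICMT) and 1 lower (PDSS1) of 14 in PC3 cells. Of all 13739 genes with a value in LNCaP cells, 380 were at least 1.5-fold higher and 273 at least 1.5-fold lower. In PC3 cells 1133 were higher and 1419 lower of 13815. The counts of this short list are therefore not read as a difference from all genes. The ICMT value is a bound, since its PC3 control was not well above background, and its spot had a bright local background on at least 1 array.

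Among the genes outside the arm whose pair of ratios lay nearest to the medians of the 8 were ANKRD29, FDPSL2A, TSC22D1 and CYP51A1, at distances from 0.038 to 0.059 over 11008 genes and 4 arrays. FDPSL2A carries the name of an FDPS-like sequence and cannot be told from FDPS with certainty, and its spot and that of ANKRD29 had a bright local background on at least 1 array. CYP51A1, lanosterol demethylase, is also on the cholesterol list.

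Untreated cells of the lines were compared in the arm as well. At 2-fold, 3 of the 8 were lower in PC3 cells than in LNCaP cells, GGPS1 at 3.33-fold lower, IDI1 at 2.39-fold lower and ACAT2 at 2.10-fold lower, while 0 were higher. The count was 4 with the 50th percentile, where HMGCS1 was added (-1.28), and 2 with the spike-in probes, normexp and cyclic loess, where ACAT2 lay between -0.86 and -0.90. The log2 ratio of GGPS1 was -1.74, and -1.09 after normexp. Over all genes with a value, 19% were at least 2-fold lower and 20.6% at least 2-fold higher in PC3 cells. Differences of this size were thus common between the lines, and the count is not read as particular to the arm. The log2 ratio of PC3 over LNCaP was -0.84 ± 0.20 for HMGCS1, -0.48 ± 0.20 for PMVK, -0.19 ± 0.20 for MVK, -0.04 ± 0.20 for FDPS and 0.75 ± 0.21 for MVD. FDPS and MVK thus lay within their scanner error of no difference, and the sign of both turned with the scaling. The median over the 8 was -0.66, beside -0.12 over all genes measured on both control arrays. That all-gene median moved to -0.56 with the 50th percentile and to 0.09 with the spike-in probes.

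The scaled levels (log2 over the array's 75th percentile) put the arrays in order for each gene. ACAT2, PMVK, IDI1 and GGPS1 had both LNCaP arrays above both PC3 arrays. For ACAT2 the order was LNCaP ATO (2.88), LNCaP control (2.17), PC3 ATO (1.88) and PC3 control (1.10). HMGCS1 had the same order, but LNCaP control (2.32) and PC3 ATO (2.11) lay only about 1 scanner error apart, as did those of PMVK (3.39 and 3.15). For MVK and FDPS both ATO arrays were above both controls, whichever the line, with 2.55 and 2.22 against 1.90 and 1.71 for MVK. FDPS had 4.97 and 4.88 against 4.43 and 4.40, so the lines differed by less than the error within each treatment. MVD was the only gene led by PC3 ATO (0.41), followed by LNCaP ATO (-0.20), PC3 control (-0.46) and LNCaP control (-1.21).

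The only test that the design allowed was limma on all 4 arrays, with cell line as a block and 1 residual degree of freedom, in which the lines stand in for replicates. Its p-values rest on how far apart the ATO ratios of the 2 lines lay and on a variance pooled over all genes. They rest on no spread between cultures of a line. A response that differs between the lines therefore enters them as noise. Where the lines of a gene lay close, its standard error of about 0.13 came largely from that pooled variance. None of the 11902 genes tested passed an adjusted p of 0.05 (0, 0%), whereas 532 (4.47%) had an unadjusted p under 0.05. Among the 8 genes, 0 passed the adjusted p and 6 had an unadjusted p under 0.05 in limma. All 8 had an adjusted p of 0.762 in limma. The mean log2 ratio over the lines, with its limma standard error, was 0.94 ± 0.13 for MVD, 0.74 ± 0.13 for ACAT2, 0.58 ± 0.13 for MVK and 0.51 ± 0.13 for FDPS. It was 1.24 ± 0.35 for HMGCS1 and 0.66 ± 0.19 for IDI1, whose lines lay apart, and 0.39 ± 0.19 for GGPS1 and 0.17 ± 0.13 for PMVK, the pair over an unadjusted p of 0.05. The lowest unadjusted p of limma among them was 0.00324 for MVD, higher in 2 of 2 lines.

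The position of a spot on the array was set beside its ratio, since the median local background of the LNCaP ATO array went from 91 units in its first band of rows to 199 units in its last. ACAT2 lay in row 1 and PMVK in row 127, IDI1, HMGCS1, FDPS, MVK and MVD lay between rows 280 and 370, and GGPS1 in row 473 of 532. In the bands of 38 rows that hold the 5 middle genes, the LNCaP ratios of 95% of spots lay under 0.32, 0.30 and 0.31, and each of the 5 was above its band's value. GGPS1 lay within its band, whose upper bound was 0.46. In PC3 cells the bounds of these bands were wider, from 0.57 to 0.68. ACAT2 and MVD stood clear above theirs, while HMGCS1 (0.62 against 0.59) was near its own. MVK, PMVK, IDI1, FDPS and GGPS1 (0.65 against 0.68) lay within their PC3 bands. The medians of the spots around each gene lay between -0.07 and 0.07 in LNCaP cells and between -0.12 and 0.12 in PC3 cells.

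**Figure D4:**
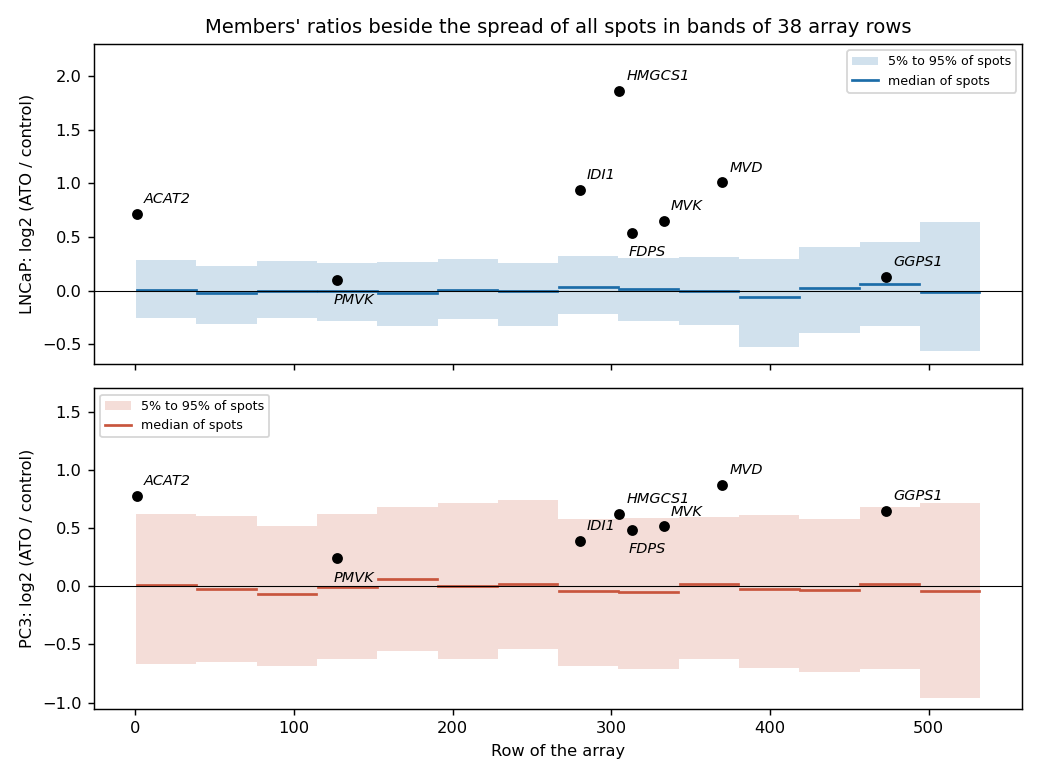
Log2 ratio of ATO over control against the row of the array, in LNCaP cells (upper) and PC3 cells (lower). Shaded bands span 5% to 95% of the gene spots in 38 rows each, horizontal lines their medians and black points the 8 enzymes. In LNCaP cells 6 of the 8 lie above their band. In PC3 cells the bands are wider, and only ACAT2, MVD and, narrowly, HMGCS1 lie above theirs.

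The choice of scaling moved the PC3 ratios more than the LNCaP ratios. Over 6 scalings the LNCaP median of the 8 stayed between 0.57 and 0.71, and the PC3 median ranged from 0.23 (spike-in probes) to 0.76 (50th percentile). The median of all PC3 genes moved in the same direction, to -0.33 with the spike-in probes and 0.21 with the 50th percentile. Both of these scalings subtract 1 constant from an array, so the members' distance from the median of all genes is the same as with the 75th percentile by construction (0.56). After normexp, which is not of that kind, it was 0.45.

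**Figure D5:**
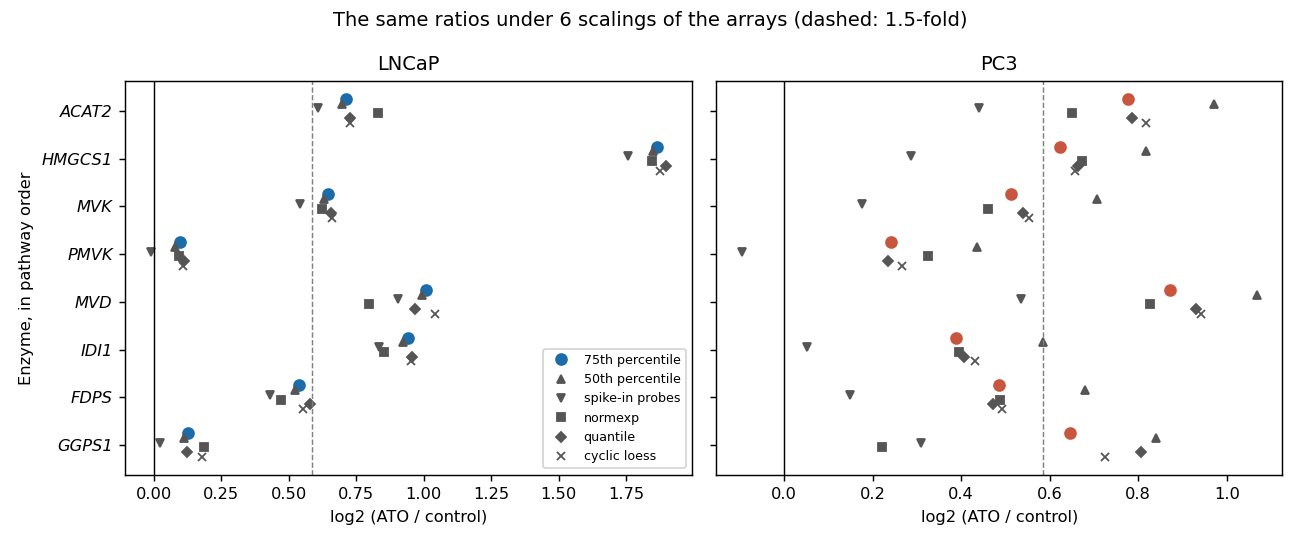
Log2 ratio of ATO over control of the 8 enzymes in LNCaP cells (left) and PC3 cells (right) under 6 scalings or background corrections, the coloured point being the one used in the text. The markers of HMGCS1 stay between 1.76 and 1.90 in LNCaP cells, and in PC3 cells the spike-in markers of all 8 lie left of the dashed 1.5-fold line.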

How the data were processed

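Total RNA of 4 samples was labelled and hybridised to Agilent 4x44K arrays, and the authors read them with Agilent Feature Extraction (version 9.5.3.1 per the file headers). The deposited scanner files give the processed spot intensity (background fitted in space and subtracted, corrected for a multiplicative trend), its error, and yes or no calls for background, saturation and outliers, which were read as other flags per the file headers. The deposited table of ratio values, processed intensity over the array's 75th percentile, served as an alternative; the study's methods name GeneSpring GX for the analysis after Feature Extraction, and the scaling was inferred from the values.

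Outlier spots were left out, log2 intensities were averaged per probe, and each array's 75th percentile over probes was subtracted. Each gene took its brightest probe. Genes entered where either array of a pair was well above background, and a gene dim on the other gave a bound. Bright local backgrounds exceeded the array median by 5 scaled MADs. Neighbouring spots were those within 10 rows and columns. R 4.3.3 and limma 3.58.1 (lmFit, eBayes, two-sided, Benjamini-Hochberg over all genes tested) were used after being tested on simulated data.

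Groups came from the sample labels. The named genes were the 8 members, genes of the fixed lists in list order or past 1.5-fold in both lines, and the 5 nearest in pattern by Euclidean distance, and some genes that this rule names are not reported here. The members and lists were chosen with earlier results of these data known. Position on the slide cannot be told apart from group. Probe coordinates are those of the files (hg18), with no exon annotation of that build used here, and protein sequences were not analysed here. The alternatives were another percentile, spike-in probes, normexp (offset 50), quantile, cyclic loess, the deposited table, subtraction of neighbouring spots, no bright backgrounds, no filter, outlier spots kept, the median over probes, other thresholds and a trended prior.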

Additional observations from a re-analysis of the deposited data

How the results depend on the processing

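Of 277 recomputed log2 ratios and medians (counts and limma values are apart from these), 220 moved by less than the SD between repeated spots, 50 moved by more and 7 changed sign. Part of the 220 could not move. No member had further probes and all were well above background, so the median over probes and the missing filter left every ratio unchanged. Leaving out bright backgrounds removed members without changing the ratios of the rest. The deposited table was read as the same signal at the same percentile. The 220 is therefore no measure of robustness. For the PC3 cells, the median log2 ratio of the 8 genes was 0.76 with the 50th percentile and 0.23 with the spike-in probes. The PC3 count past 1.5-fold was 0 with the spike-in probes, 2 (of 5 genes left) without bright local backgrounds, 3 after normexp and 6 with the 50th percentile. The count of untreated differences ran from 2 to 4 at 2-fold. With the 75th percentile, 2 genes passed 2-fold in LNCaP cells and 0 in PC3 cells, and at 4-fold 0 differed between untreated lines. The genes passing limma's adjusted p of 0.05 numbered 5 with the 50th percentile and 6 with the spike-in probes, none of them a member. Genes at an unadjusted p under 0.05 in limma numbered 1234 with the spike-in probes and 948 with no filter on dim probes, with 3 members in either. The changes of sign were those of PMVK with the spike-in probes (-0.00899 in LNCaP cells and -0.0961 in PC3 cells), of MVK untreated with the spike-in probes (0.0175), and of FDPS untreated with the spike-in probes (0.17), quantile (0.0842), cyclic loess (0.20) and neighbouring spots subtracted (0.0357). The shift of the all-gene median under these scalings is given with the ratios above, and no other cause was tested.

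Each member was read from 1 spot on 1 array a group. Leaving out an array was not run, since no residual degree of freedom would remain. The labels carry no replicate numbers, so the only pairing was by cell line, which the limma fit holds as its block. The scanner error of the PC3 ratio was 0.25 for GGPS1 against 0.20 to 0.21 for the other members.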
